A study of Mus musculus with 8 samples.

Results

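In mouse embryonic stem cells (mESC), 604 of the 9217 genes in a table of peaks carried 6 or more peaks each. These genes are described here with their peaks, their RNA levels with and without folic acid, and their RNA levels in embryonic brain. The table has 1 row for every pairing of a peak with a gene, and genes were chosen by their number of rows alone. They held 5166 of the 23089 rows and 4451 of the 20961 distinct peaks, so 6.55% of the genes held 22.4% of the rows. The number of rows that chose the genes comes from the same pair of mESC samples as the peak and RNA values. Those values are therefore given as a description, with no test.

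The study bears on ALKBH1, DNA N6-methyladenine and H3K9me3 heterochromatin in neural tube development under folate shortage. The mESC, of Sv129 background, gave 1 library each from medium lacking folic acid (FA0) and from medium holding it at 4 mg/L (FA4). The 6 brain libraries came from mouse embryos of embryonic day 9.5 to 10.5. In the neural tube defect (NTD) group of 3, dams ate a low folate diet and received methotrexate (MTX), an antifolate, at 1.5 mg/kg into the peritoneum on gestational day 7.5. The 3 controls carry a normal saline label that leaves their dams' diet unstated, so diet and drug are compared together.

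Folic acid feeds one-carbon metabolism, which supplies building blocks for DNA synthesis and the methyl groups that S-adenosylmethionine passes to DNA, RNA and histones. A peak is a stretch where an enrichment assay gathers more reads than a reference. Long transcripts offer more room for peaks, and many large nuclear regulators, cytoskeletal linkers and cell surface receptors are encoded by long transcripts. The labels do not name the assay behind the peaks or what each peak was compared with.

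Brain libraries held 17335564 to 26788304 counts, and the listed mESC genes held 3901966 estimated counts in FA4 and 5247130 in FA0. Among stem cell markers, Pou5f1, the core pluripotency factor, was at 456 FPKM in FA4 and 405 in FA0. Nanog was at 156 and 208 FPKM. Of the early differentiation markers in the table, the highest was Eomes at 3.29 and 4.33 FPKM. FPKM, used as deposited, scales the fragments of a gene by its transcript length and by the depth of the library.

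The number of peaks per gene fell off steeply. One peak was listed for 3644 genes, 5 for 477 and 6 for 246, while 107 genes had 10 or more. Just inside the threshold, genes with 6 peaks had median FPKM of 20.4 in FA4 and 19.2 in FA0, and a median longest transcript of 5800 bases. Just outside it, genes with 5 peaks were at 18.4 and 18.8 FPKM and 5036 bases. The threshold therefore cuts through a continuous slope rather than a gap.

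**Figure D1:**
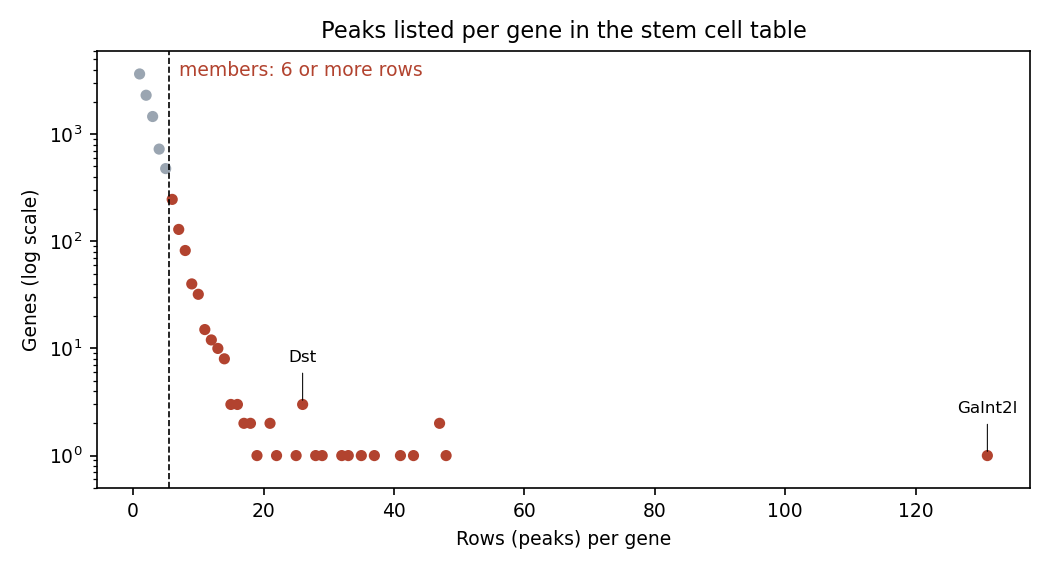
The horizontal axis gives rows (peaks) per gene and the vertical axis, on a log scale, the number of genes at each value. Red points right of the dashed line are the 604 genes with 6 or more rows. Galnt2l stands alone at 131 rows, and Dst is one of 3 genes with 26.

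Members had longer transcripts and more RNA than most of the table. Their median transcript length was 6694 bases against 3662 for all annotated genes and 3013 for genes with 1 peak, and 97 of them had a transcript over 10 kb. Over 9210 annotated genes, the number of rows correlated with transcript length at a Spearman rho of 0.38 and with mean FPKM at 0.23. These correlations describe genes of the same samples and rest partly on genes that share peaks. Per kilobase of transcript, members still carried more peaks, with a median of 1.10 against 0.57 for all genes, although the rule itself favours this. All but 1 of the members were annotated as protein coding.

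Their annotated functions lay more in the nucleus than those of the table as a whole. In the gene ontology columns of the authors' deposited table, 50.5% of members had the term nucleus against 39.4% of all genes. The term DNA binding was held by 20.5% against 11.2%, and chromatin binding by 7.12% against 3.48%. Calcium ion binding was held by 7.12% (43 members) against 2.71%. The members include 18 gamma protocadherin genes of a single locus, described below, which share their peaks. How many of the 43 they make up was not counted. Mitochondrion went the other way, at 4.80% against 10.8%. Among 22 listed folate and one-carbon enzymes in the table, none had 6 or more peaks, where 6.55% of all genes did. A list of 22 can hold no member at that share, so this does not set the enzymes apart.

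The genes with the highest numbers of rows mostly shared their peaks with other genes. Galnt2l, a gene model that spans 4434882 bases at chr8:119910841-124345722 (mm10, GENCODE M21), had 131 rows, and every one of those peaks was also listed for another gene. The shared peaks reached 48 other genes, among them Ankrd11 with 13 peaks, Urb2 with 9 and Zcchc14 with 9. Fgfr2, a fibroblast growth factor receptor gene, had 32 rows with 31 shared, and its annotated model covers 2960900 bases at chr7:130162451-133123350. Its shared peaks reached 15 other genes, such as Zranb1 with 6 and Tacc2 with 5. For both genes, the rows thus count peaks that lie within a very long annotated span and are also assigned to its neighbours.

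The gamma protocadherins, cell adhesion proteins of neurons encoded by many first exons joined to common last exons, gave the other large block. Their 18 members, between chr18:37661793 and 37841873, filled 423 rows with only 43 distinct peaks. Pcdhga1 was listed for 43 of them, Pcdhga2 for 41 and Pcdhga3 for 37. The overlapping models Gm42416, Gm37013 and Gm37388 had 48, 47 and 47 rows. RNA of the gamma protocadherin genes was low, at 0.63 to 3.65 FPKM in FA4 and 0.92 to 4.76 in FA0, and reads of common exons cannot be assigned to one of them with certainty. In the authors' deposited table, the lower peaks numbered 19 of 43, 1 was higher, and the median difference was -1.57 (log2).

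Sharing was otherwise the exception. Of the 4451 member peaks, 529 (11.9%) were listed for several genes, against 7.31% of all peaks, and a single peak was listed for up to 23 genes. Of all peaks, 1532 were listed for several genes, and 59.99% of these had genes on both strands. Counting unshared peaks alone, 489 members still had 6 or more, and 66 had none. The gene symbol Zc3h11a stands in the table under separate gene identifiers, both with 10 rows.

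Among genes with no shared peaks, Dst, which links cytoskeletal filaments to junctions, led with 26 peaks. Macf1, a microtubule and actin crosslinker, had 22, and Mga, a MAX partner in a repressive Polycomb complex, had 21. Cenpf, a kinetochore protein, and Kmt2d, an H3K4 methyltransferase active at enhancers, each had 18. Fat1, a giant cadherin, had 17, while Kmt2a, another H3K4 methyltransferase, Map1b, a microtubule-binding protein, and Mki67, a coat protein of mitotic chromosomes, each had 16. All of these have very long transcripts, from 10061 bases for Mki67 to 23495 for Macf1.

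For each peak the authors' deposited table gives a log2 fold in FA4, a log2 fold in FA0, their difference and an adjusted p. These are the authors' own values per peak. Each group is 1 mESC sample, so they compare 2 samples, not conditions, and the libraries behind each fold are not stated. Here "lower" and "higher" refer to FA0 against FA4 at that adjusted p under 0.05. Across the 4450 member peaks with a value, the median fold was 4.26 in FA4 and 3.56 in FA0 (log2), and the median difference was -0.78. Of these, 2086 peaks (46.9%) were lower, where the background over all peaks was 41.7%. A further 825 (18.5%) were higher, against 19.1% of all peaks. For genes with 1 peak the shares were 35.4% and 18.5%, and for those with 5 peaks 44.9% and 18.0%. Genes with 6 peaks stood at 47.6% and 18.3%.

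The direction followed the numbering of the peaks. Peak numbers run through the chromosomes from 1 to 10702 and then start again at chromosome 1 from 10703 to 20961, and the files do not say what separates the pair of runs. Member peaks of the first run had a median fold of 5.46 in FA4 and 4.18 in FA0 (log2), and 1849 of 2378 (77.8%) were lower while 19 were higher. Those of the second run had medians of 2.56 and 3.04, and 806 of 2072 (38.9%) were higher while 237 (11.4%) were lower. No member peak of the first run had an FA4 log2 fold under 1, whereas 25.3% of the second run did. FA0 folds under 1 were rare in both, at 0.42% and 0.19%. The same split held over all peaks, with 72.1% lower in the first run and 38.1% higher in the second, so a gene's net direction cannot be told apart from its mix of runs.

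**Figure D2:**
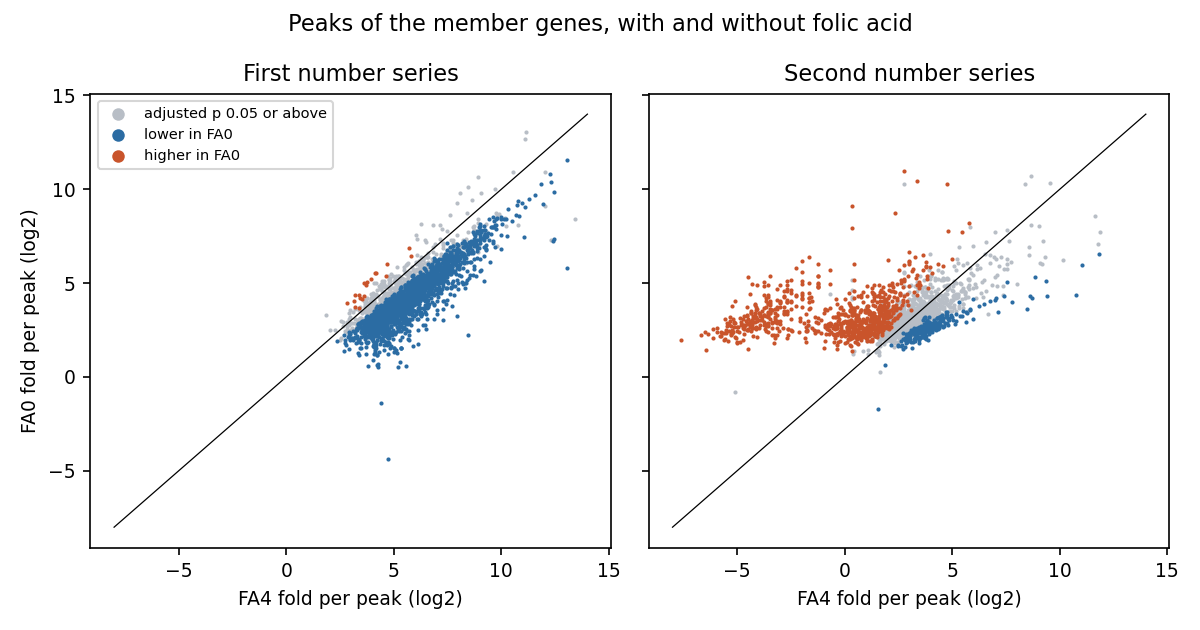
Each point is a distinct peak of a member gene, with the authors' log2 fold in FA4 on the horizontal axis and in FA0 on the vertical axis, split by run of peak numbers. The line marks equality. In the first run 1849 of 2378 peaks were lower and 19 higher, all with an FA4 log2 fold above 1, and the second run holds the points with negative FA4 folds, 358 in all.

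Most genes held both kinds of peak. Peaks of both runs were listed for 581 members, of the first alone for 14 and of the second alone for 9. At least 1 lower and 1 higher peak occurred in 374 members, lower peaks without a higher one in 211, the reverse in 18, and neither in 1. Within a gene, the differences of its peaks spanned a median of 4.75 log2 units, from 0.80 to 14.2. The gene medians were negative in 480 members and positive in 124. With more first-run than second-run peaks, 309 of 313 members had a negative median, and with more second-run peaks 97 of 207 did. Over 580 gene symbols with both, the first-run median lay below the second-run median in 549 (94.7%).

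Of 31 listed histone methylation enzymes in the table, 10 (32.3%) were members, where 6.55% of all genes were. The function lists were drawn up with results of these data known, so neither this share nor those that follow sets a list apart. Their 111 peaks were lower in 53 cases (47.7%) and higher in 18 (16.2%), near the 41.7% and 19.1% of all peaks, and none of the 10 genes passed 1.5-fold in FPKM. For Kmt2d, 12 first-run differences ran from -3.16 to 0.08 (log2) in the authors' deposited table and 6 second-run differences from -0.93 to 2.90. Its strongest FA4 peak went from 7.54 to 5.76. Kmt2a had 9 lower and 3 higher peaks, and Nsd1, an H3K36 methyltransferase, had 9 lower and 1 higher. RNA of Kmt2d was 27.5 FPKM in FA4 and 36.0 in FA0, of Kmt2a 23.6 and 22.4, and of Nsd1 43.5 and 42.0.

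Of 23 listed genes of H3K9 methylation and heterochromatin, 9 were members. Their 87 peaks were lower in 52 cases (59.8%) and higher in 15 (17.2%), against 41.7% and 19.1% of all peaks. The median difference was -0.98 (log2). Such shares depend on the mix of runs, which was not counted for the list. Mga had 14 lower and 2 higher peaks. Its first-run differences ran from -1.73 to -0.50, and a single second-run peak stood apart at 7.23, with an FA4 fold of -5.09 and an FA0 fold of 2.14. Atrx, a remodeler that loads histone H3.3 at heterochromatin, had 5 lower and 2 higher of 13, and Rif1, a replication timing factor, had 6 and 1 of 10. All 7 peaks of Atf7ip, the nuclear partner of the H3K9 methyltransferase SETDB1, were lower. They went from 4.51 to 2.77, 4.91 to 3.40, 5.15 to 3.14, 5.04 to 3.89, 7.64 to 4.81, 4.47 to 3.21 and 4.22 to 2.95 from FA4 to FA0. The last 2 of these are second-run peaks, so in Atf7ip both runs pointed the same way. Chd4, the NuRD remodeler, was picked out after its values were seen and went the other way, with 7 of 8 peaks higher and 1 lower.

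Remodelers and acetylation enzymes also held peaks of both directions. Of 30 listed remodelers 14 were members, with 56 of 121 peaks lower (46.3%) and 32 higher (26.4%). Of 27 listed acetylation and corepressor genes 9 were members, with 34 of 65 peaks lower (52.3%) and 13 higher. Arid1a, a BAF subunit whose loss in mice disturbs neural tube closure, had 6 lower and 2 higher of 9. Its higher peaks, both of the second run, went from 0.10 to 2.67 and from -0.84 to 2.63. Crebbp, a histone acetyltransferase, had 7 of 8 peaks lower, and its first-run differences were close together, between -1.86 and -1.52. Kat6a and Kat6b, acetyltransferases of the MYST family, had 3 and 6 lower peaks of 8 each, and 1 higher peak each. Bptf, the large NURF subunit, had 7 lower and 3 higher of 12, and Chd9, a chromodomain remodeler, had 6 and 3 of 13.

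The DNA methylation list gave 4 members, and they split. Dnmt1, the maintenance methyltransferase, had 7 peaks, all of the second run, of which 4 were higher and none was lower. Their FA4 folds were 0.51, -4.71, 1.68, 0.87, 2.23, 0.14 and 1.25, against FA0 folds of 3.08, 3.07, 2.09, 2.93, 2.87, 2.26 and 1.98. Every Dnmt1 peak thus had the larger fold without folic acid, while its RNA was at 63.0 and 62.1 FPKM. Tet1, a 5-methylcytosine oxidase, had 4 lower and no higher peak of 9, and Tet3 had 2 and 1 of 7. The lower peaks of Tet1 and Tet3 were all of the first run, and the higher Tet3 peak was of the second. Their difference from Dnmt1 therefore cannot be told apart from the mix of runs. RNA of Tet1 was 42.4 FPKM in FA4 and 34.0 in FA0, and of Tet3 7.29 and 7.41.

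**Figure D3:**
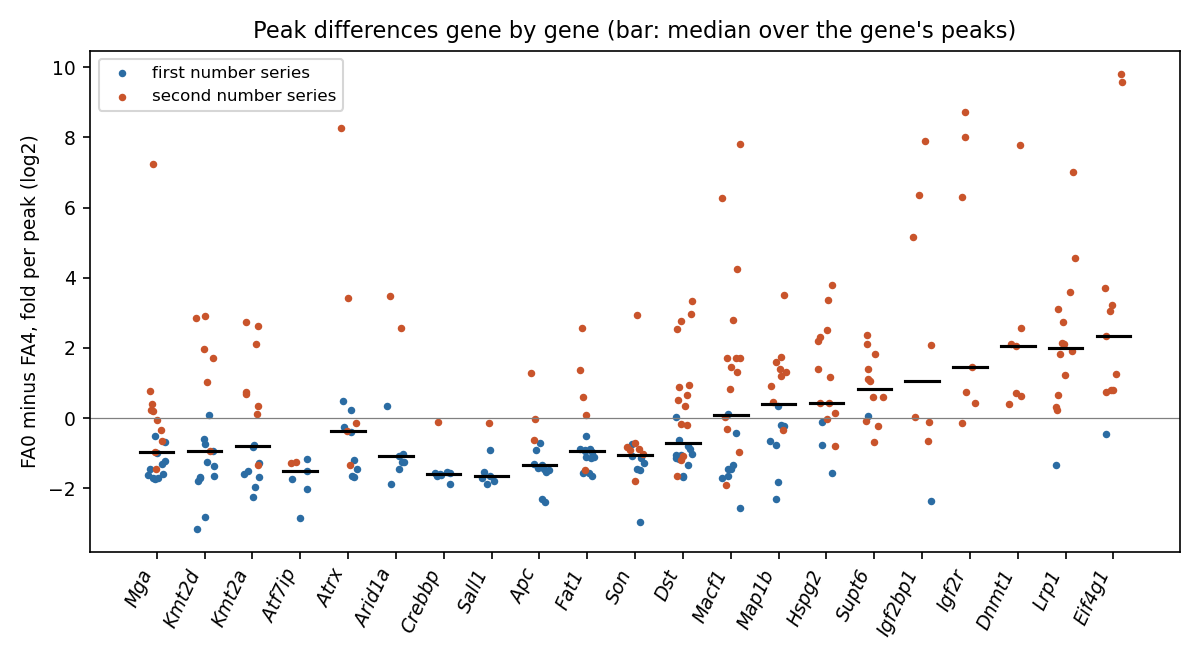
Each point is a peak, with FA0 minus FA4 of the authors' log2 fold on the vertical axis. Colours give the run of peak numbers and black bars the median of each gene. The genes and their order were picked by hand, so the order from left to right is not a result. The median lies below 0 for Atf7ip (-1.51) and above 0 for Dnmt1 (2.06), Lrp1 (2.01) and Eif4g1 (2.34). Peaks of Dnmt1, Lrp1 and Eif4g1 are nearly all of the second run. Chromatin genes are not all on the negative side, and Chd4, whose peaks were mostly higher, is not shown.

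RNA methylation genes were members in 7 of 17 cases. Zc3h13 and Virma are subunits of the m6A writer complex, and Igf2bp1 binds m6A-bearing RNA. Zc3h13 had 4 lower and 3 higher peaks of 10, and Virma 5 and 1 of 8. One of the 4 largest rises among member peaks was in Virma, from -5.09 to 4.04, where the low FA4 fold carries most of the difference. Igf2bp1 had 4 higher and 2 lower peaks, 7 of its 8 being of the second run. Alkbh5, an m6A RNA demethylase, was also the only member among 7 genes listed for the AlkB family and DNA N6-adenine methylation. Its 6 differences were -0.38, 0.78, -2.16, -1.93, -1.29 and -0.34, so 1 of 6 rose in value, and its RNA was 8.53 FPKM in FA4 and 13.9 in FA0.

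Splicing and RNA decay contributed 13 of 43 listed genes, with 51 of 105 peaks lower and 26 higher. Son, a nuclear speckle protein, had 11 lower and 1 higher of 14, and here the second run was mostly negative too. Its second-run differences ran from -1.78 to -0.69, apart from one of 2.95. Srrm2, another speckle protein, had 5 lower and 1 higher of 10. Ago2, the small RNA guided slicer, had 4 lower and 5 higher of 12. In transcription, Supt6, an elongation factor, had 6 higher and 1 lower of 12, and Med13l, a Mediator kinase module subunit, had 2 and 5 of 9. Eif4g1, a translation initiation scaffold, had 9 higher and 1 lower of 11 peaks and held the largest rises of all members, from -4.47 to 5.34 and from -7.58 to 2.00.

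Cytoskeleton and motor genes were members in 17 of 36 cases, and their peaks were more evenly divided, with 67 of 188 lower and 54 higher. In Macf1, 7 peaks were lower and 8 higher, and first-run differences of -2.56 to 0.13 faced second-run differences of -1.89 to 7.82. Dst had 12 lower and 4 higher, and Map1b 2 lower and 5 higher. Cell division genes gave 11 of 35, with 34 of 95 peaks lower and 32 higher. Cenpf had 7 lower and 4 higher, Mki67 8 and 5, and Pcnt, a centrosome scaffold, 3 and 2 of 9. DNA repair and replication gave 11 of 40, with 39 of 87 peaks lower and 17 higher. Brca2, a DNA repair protein, had 6 lower and 1 higher of 10, and Bod1l, a protector of stalled forks, had 4 and 1 of 12. Among ubiquitin ligases, members in 8 of 39 cases, Herc1 had 5 lower and 2 higher of 9, and Ubr4 had 1 and 5 of 10. Rnf213 had 8 lower and 1 higher of 12, although its RNA was at 0.41 FPKM in FA4 and listed at 0 in FA0.

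Cell surface genes fell on both sides. In Wnt, Notch, Hedgehog and cadherin signalling, 9 of 32 listed genes were members, and 44 of 82 peaks were lower against 8 higher. Fat1 had 12 lower and 2 higher peaks, its first-run differences lying between -1.65 and -0.50. Apc, the scaffold that marks beta-catenin for destruction, had 9 lower and no higher of 13, and Ptch1, the Hedgehog receptor, had 2 and 1 of 8. Growth factor genes gave 6 of 29. Of these, Irs2, an insulin receptor substrate, had 6 lower and no higher peak of 9. Igf2r, which clears IGF2, had 5 higher and no lower of 7, all of the second run.

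The extracellular matrix and lipoprotein receptor list, with 9 of 19 genes as members, was the one function list with a positive median difference, 0.33 (log2). Of its 80 peaks, 29 were higher and 23 lower. Lrp1, an endocytic receptor, had 9 higher and 1 lower of 14. Its single first-run peak went from 4.11 to 2.78, and all 13 second-run differences were positive, from 0.24 to 7.01. Hspg2, the basement membrane proteoglycan perlecan, had 6 higher and 3 lower of 15, with 12 second-run peaks. Lrp2, an endocytic receptor needed for forebrain development in mice, had 8 lower and 2 higher of 13, with 9 first-run peaks. The 3 genes thus differed in direction as they did in their mix of runs.

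Pluripotency regulators supplied 5 of 30 listed genes. Trim71, an RNA-binding ubiquitin ligase of stem cells whose loss in mice leaves the neural tube open, had 3 lower and 3 higher of 10. Its first-run peaks went from 7.14 to 5.26, 4.08 to 2.62 and 10.97 to 9.28, and its second-run differences ran from -0.79 to 5.43. Tbx3, a T-box factor, had 4 lower and 1 higher of 8. Sall1, a zinc finger factor bound with NuRD in stem cells, had 6 lower and no higher of 7. Its strongest peak went from 9.20 to 7.51. Of 37 listed genes whose mutation gives neural tube defects in mice, 11 were members. Their 104 peaks were lower in 58 cases (55.8%) and higher in 21 (20.2%). Of 290 Zfp-numbered zinc finger genes, 27 were members, with 118 of 214 peaks lower (55.1%) and 15 higher (7.01%). Over all peaks the shares were 41.7% and 19.1%, and the mix of runs in these lists was not counted.

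Single peaks reached wide differences. The largest fall was in Rnf168, a ubiquitin ligase at DNA breaks, from 4.71 to -4.37 at the authors' adjusted p of 7.15e-05. Pdzd2, a PDZ domain protein, fell from 13.1 to 5.81, Ank3, the axonal ankyrin G, from 10.7 to 4.39, and Kat6a from 8.45 to 2.23. Beside Eif4g1 and Virma, the largest rises included Scube3, a secreted glycoprotein, from -4.31 to 4.95. In each of the 4 largest rises the FA4 fold was negative, at -7.58 to -4.31 on the log2 scale.

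RNA of the members hardly moved between the mESC libraries. Over the 530 members whose mean reached 5 FPKM, the median log2 ratio of FA0 to FA4 on the log2(FPKM + 1) scale was 0.00, with quartiles at -0.14 and 0.15, and that of all 6771 such genes was also 0.00. That scale understates the change of low genes. Of the 530, 13 lay at least 1.5-fold higher in FA0 (2.45%), against 3.26% of all genes. A further 19 lay at least 1.5-fold lower (3.58%), against 3.25% of all genes. Both shares are near the background. Median FPKM of all members was 21.0 in FA4 and 20.7 in FA0, against 12.04 and 12.09 over the table. Across the 530 genes, the median peak difference and the log2 FPKM ratio had a Spearman rho of 0.05, both from the same samples. Because a gene's median difference followed its mix of runs, this value cannot decide whether peaks and RNA moved together.

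Falls in FPKM were led by Atf7ip, at 54.1 in FA4 and 16.7 in FA0, a log2 difference of -1.64. Its estimated counts did not show that size, at 443 and 493, which after depth is a ratio of 0.83 (95% exact binomial interval 0.73 to 0.95, counting error only). Ube4a, a ubiquitin chain assembly factor, went from 23.4 to 10.3 FPKM with a count ratio of 0.71 (0.59 to 0.86). Chd2, a chromodomain remodeler, went from 12.9 to 6.22 FPKM, and its count ratio was 0.21 (0.16 to 0.28). Pprc1, a coactivator of mitochondrial gene expression, went from 108 to 60.0 FPKM with a count ratio of 0.88 (0.81 to 0.95). Sall1 went from 53.3 to 29.4 FPKM with a count ratio of 0.55 (0.51 to 0.60), and Pcnx3 from 7.93 to 4.02 with 0.43 (0.33 to 0.56). Fgfr2 went from 14.2 to 7.81 FPKM with a count ratio of 0.61 (0.50 to 0.75). Each of these 7 was lower by both measures, with an interval of the count ratio below 1, and Chd2, Sall1, Pcnx3 and Fgfr2 also passed 1.5-fold in counts.

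Rises were led by the predicted gene Gm28036, from 10.99 to 28.87 FPKM, although its count ratio was 0.84 (0.71 to 0.99) and it had no unshared peak. Zc3h4, a restrictor of noncoding transcription, went from 12.5 to 24.4 FPKM with a count ratio of 1.12 (0.98 to 1.27). Agap1, a regulator of Arf GTPases, went from 21.4 to 40.3 with 1.34 (1.23 to 1.46), and Ccdc167 from 4.92 to 9.71 with 1.33 (1.04 to 1.71). Mycl, a MYC family factor, went from 10 to 18.5 FPKM with a count ratio of 1.43 (1.18 to 1.74). Nrp2, a semaphorin and VEGF receptor, went from 11.8 to 21.5 with 1.85 (1.65 to 2.09), and Alkbh5, named above, had a count ratio of 1.64 (1.41 to 1.897). Of the 13 higher genes, 11 had a count ratio in the same direction with an interval excluding 1, and 4 passed 1.5-fold in counts too. Of the 19 lower genes these were 17 and 6. In 1 gene of each direction the count ratio pointed the other way. With 1 library per group there is no replicate check on any of these values.

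**Figure D4:**
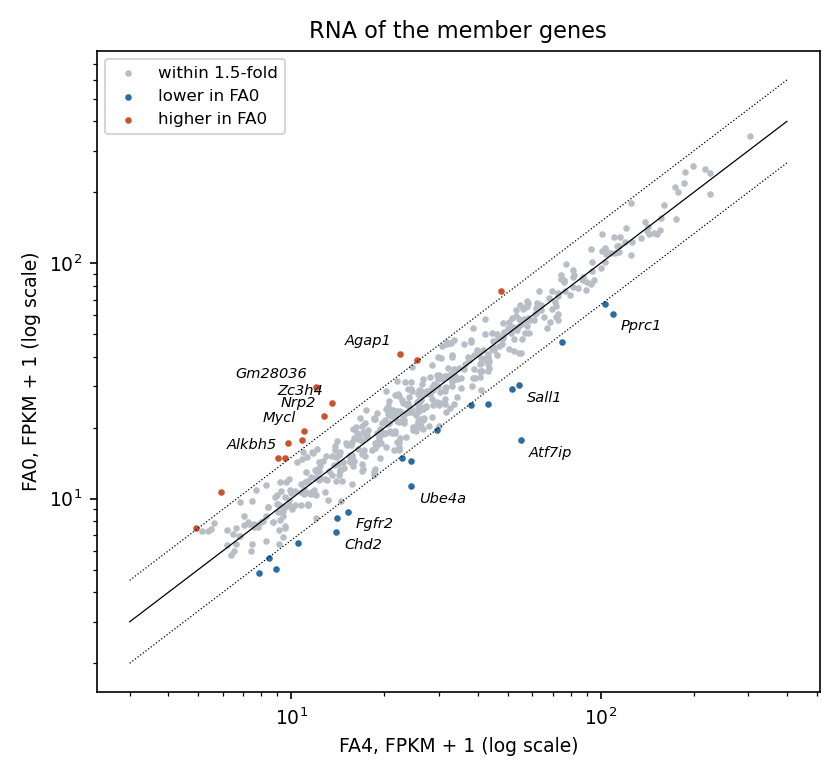
Each point is one of the 530 member genes whose mean reached 5 FPKM, with FPKM + 1 in FA4 and FA0 on log axes. The solid line marks equality and the dotted lines 1.5-fold; 13 genes lie above the upper line and 19 below the lower one, with Atf7ip farthest below.

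Brain values do not enter the rule that chose the genes, so NTD and control brain could be tested. The rule was nevertheless set with earlier results of these data known. Of the 604 members, 533 were in the brain table and 495 had enough counts for edgeR's quasi-likelihood test. At an adjusted p under 0.05 over all 11626 genes tested, 5 members were higher in NTD brain (1.01%), where 1.89% of all genes were called. A further 3 were lower (0.606%), where 0.998% were called. The members' shares rest on 5 and 3 calls, so no difference from all genes is read from them. Their median log2 fold change was -0.03, and that of all genes -0.02.

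Trim71 had the smallest adjusted p. It stood at 10.6, 32.5 and 18.0 CPM (counts scaled to library size) in control libraries 1 to 3 and at 193, 188 and 293 CPM in the NTD libraries. The NTD libraries were all above the controls, 11.02-fold on the fitted scale (log2 3.46 ± 0.45 SE, n = 3 and 3, edgeR adjusted p = 0.0046). Fn1, the matrix protein fibronectin, was at 47.6, 28.1 and 31.1 CPM in controls and 161, 113 and 141 in NTD, a rise of 3.89-fold (edgeR adjusted p = 0.016). Nars, the asparaginyl-tRNA synthetase, was at 28.2, 68.5 and 41.6 against 198, 201 and 132 CPM, 3.84-fold higher (edgeR adjusted p = 0.029). In neither gene did the groups overlap, as was so for 24.5% of all genes tested.

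Peg10, an imprinted gene derived from a retrotransposon and needed in the mouse placenta, was at 347, 220 and 284 CPM in controls and 636, 570 and 1104 in NTD. Its rise was 2.71-fold (edgeR adjusted p = 0.034). Hk2, a hexokinase of glycolysis, was at 120, 83.5 and 105 against 225, 296 and 209 CPM, 2.37-fold higher (edgeR adjusted p = 0.036). Every NTD library lay above every control library for both.

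All 3 genes that fell are known from neurons. Enc1, an actin-binding protein of the nervous system, was at 336, 304 and 272 CPM in controls and 117, 108 and 125 in NTD, 2.61-fold lower (edgeR adjusted p = 0.010). Kif1b, a kinesin of axonal transport, was at 291, 214 and 357 against 69.2, 102 and 123 CPM, 2.93-fold lower (edgeR adjusted p = 0.027). Ank3 was at 196, 172 and 222 against 85.6, 93.5 and 76.8 CPM, 2.30-fold lower (edgeR adjusted p = 0.034). The groups did not overlap in any of the 3. Such separation was found in 24.5% of all genes tested and in 20.4% of members, so by itself it does not set the called genes apart. In mESC these 8 genes had 6 to 10 peaks each, and none of them passed 1.5-fold in FPKM.

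**Figure D5:**
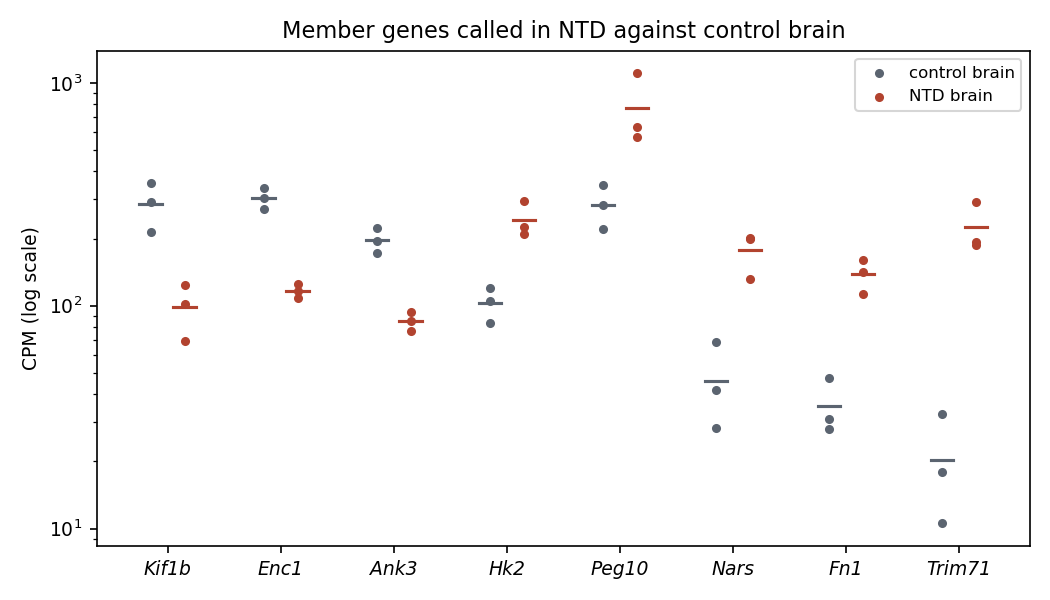
Points are the CPM values (log axis) of the 3 control and 3 NTD brain libraries for the 8 member genes called, and bars are group means. In every gene the groups lie apart, as they do in 24.5% of all genes tested. Kif1b, Enc1 and Ank3 are lower in NTD brain and the other 5 higher.

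Several lists of cell type markers differed between the brain groups, and others did not. Fibroblast markers overlapped, at a sum of 1136 to 1762 CPM in controls and 1247 to 2344 in NTD, with none of 5 tested called. Of 10 trophoblast markers tested, 8 were higher in NTD brain, and their summed level was 10.1 to 23.5 CPM in controls and 1660 to 2168 in NTD, with Tpbpa at 0 in the controls and none at 0 in NTD. Of 11 yolk sac endoderm markers 5 were higher, at a sum of 317 to 696 CPM in controls and 12830 to 15344 in NTD, with none at 0. Neuron markers summed to 3359 to 4818 CPM in controls and 590 to 694 in NTD, and 6 of 7 were lower. Of 7 neural progenitor markers 3 were lower, at 784 to 942 against 227 to 308 CPM. Early differentiation markers summed to 71.6 to 129 CPM in controls and 166 to 175 in NTD, with 1 of 8 tested higher, Cdx2 at 0 in controls, and Fgf5 and Eomes at 0 in NTD. Stem cell markers summed to 4.83 to 56.5 CPM in controls and 42.0 to 94.8 in NTD, with none of 4 tested called and Dppa5a and Utf1 at 0 in controls. The part of these cells in the changes of Trim71, Fn1, Peg10, Enc1, Kif1b, Ank3, Nars and Hk2 was not tested, and in bulk tissue fewer cells of a type and less RNA per cell cannot be told apart.

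The calls rested on all 6 libraries. Of the 8 genes, Trim71 kept an adjusted p under 0.05 when each library was left out in turn (highest edgeR adjusted p 0.048, without NTD library 1). Enc1 kept it in 4 of the 6 omissions, Fn1 in 2, Kif1b and Nars in 1, and Ank3, Hk2 and Peg10 in none, with no change of sign. The 5 higher calls became 2 without control library 2, 1 without control library 3, 1 without NTD library 1, 2 without NTD library 2 and 1 without NTD library 3. The 3 lower calls became 1 without control library 2, control library 3, NTD library 2 or NTD library 3, and 0 without NTD library 1. DESeq2 called 15 higher and 20 lower members. Calls over all genes moved as well. They numbered 336 in the main fit, 1291 with DESeq2 and 50 to 303 with a library left out.

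Across roles, the brain calls were few, beside the 1.89% higher and 0.998% lower of all genes tested. Of the 17 cytoskeleton and motor members tested, 2 were lower, Kif1b and Ank3, and none was higher. With libraries left out in turn Kif1b kept the call in 1 of 6 fits and Ank3 in none. One of 8 matrix and lipoprotein receptor members tested, Fn1, and one of 5 pluripotency regulators, Trim71, were higher. None of the 7 members tested from the H3K9 and heterochromatin list passed the test, with log2 fold changes from -0.76 to 1.16, and none of the 6 histone methylation enzymes did, at -0.70 to -0.05. Alkbh5, at a log2 fold change of 0.84, did not pass either. None of 10 tested members on the list of mouse neural tube defect genes was called, but that list leaves out Trim71, which was called higher. A p that misses the threshold does not show that a gene is equal in the groups.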

How the data were processed

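RNA-seq libraries of 6 mouse embryonic brains and 2 mESC cultures were used. The submitters' processing notes name build mm10 and the tools edgeR, HTSeq 0.9.1, HISAT2 2.0.4 and cutadapt 1.9.3. What each tool did, the annotation and the peak caller are not given there. For brain the authors deposited read counts per gene. For mESC the authors deposited estimated counts, FPKM, log2 ratios and p-values, with a log2 fold and p-value per peak. Peak positions are not in that table as used here, so no peak sequence is shown. FA4 was read from the control columns and FA0 from the case columns, after the group names in the labels.

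Members are all genes with 6 or more rows. The rule for members uses the number of rows alone, but the rule and the gene lists were set with earlier results of these data known. The ratio of FA0 to FA4 used log2(FPKM + 1) in genes whose mean reached 5 FPKM. For ratios, estimated counts were rounded to integers and divided by the relative depth of 1.33, the median over 2953 genes. Gene spans and transcripts come from GENCODE M21 (GRCm38), matched for 9210 genes. The longest transcript of a gene gave its length.

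Brain counts were tested with edgeR 4.0.16 in R 4.3.3 (TMM, filterByExpr, robust quasi-likelihood F-test, Benjamini-Hochberg adjustment over all genes tested). CPM use TMM-scaled library sizes. Whether replicates are of separate litters is unstated, so p-values reflect only the spread among these libraries. The method was tested on simulated data. DESeq2 1.42.0 and other settings were alternatives. Intervals cover counting error only, and the number of libraries limits precision.

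Named genes were the 12 with the most rows, the 6 largest rises and falls in FPKM, up to 3 per function list with the most rows, up to 6 called per direction in brain, and the genes of the 4 largest and 4 smallest peak differences. Genes outside this rule appear only as neighbours, markers or where stated.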

Additional observations from a re-analysis of the deposited data

How the results depend on the processing

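Among members, 32 genes passed 1.5-fold in FPKM. They numbered 17 with a pseudocount of 5, 21 with estimated count ratios, 10 among genes with 8 or more rows and 3 among those with 10 or more. Pseudocount 0.1, minimums of 1 FPKM or none, scaling by the median ratio and unshared peaks gave 25 to 46. The median log2 ratio lay between -0.00 and 0.02 in these settings.

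The 604 genes with 6 or more rows became 212 when only rows at the authors' adjusted p under 0.05 counted. They became 139 on the first run of peak numbers alone and 97 on the second, both chosen after seeing the data. Merging of touching peaks was not run, since the table as used here gives no positions. The share of lower member peaks, 46.9%, was 40.3% at an adjusted p under 0.01, 44.1% in genes with 10 or more rows, 50.0% as a median over genes, 77.8% on the first run and 11.4% on the second.

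In brain the 5 higher and 3 lower calls became 15 and 20 with DESeq2, which called 1291 genes in all against 336. They became 2 and 0 in genes with 10 or more rows. Leaving out each library gave 1 to 4 higher and 0 to 2 lower, among 50 to 303 calls over all genes. Leaving out control library 1 with NTD library 3, chosen after seeing the data, gave 7 and 1. Size factors and no filter left 5 and 3. In deviations from group means, same-numbered libraries correlated at -0.02, 0.09 and 0.03, and other pairs at -0.099 to 0.041. With 3 libraries per group this cannot decide whether the numbers pair samples. A replicate block gave 4 higher and 2 lower calls, without Hk2 and Ank3, among 205 calls over all genes. The causes were not tested. Depth in mESC covers listed genes alone, and 1 library per group limits every peak and FPKM value.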
